A study of Rattus norvegicus with 24 samples.

Results

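The genes for dopamine synthesis, transport and breakdown were examined in RNA-seq data from 2 tissues of the same rats. The 6 members were the synthesis enzymes Th (tyrosine hydroxylase) and Ddc (aromatic amino acid decarboxylase), the transporters Slc6a3 (dopamine transporter) and Slc18a2 (vesicular monoamine transporter, VMAT2), and the degradation enzymes Maoa and Maob (monoamine oxidases). They were taken by symbol, and each matched 1 of the 17711 rows of the deposited expression table. Male Sprague-Dawley rats pressed a lever for intravenous infusions of methamphetamine (MA, 0.05 mg/kg per infusion) or of saline (SA) in daily sessions of 2 h over 16 days. All of them had first learned the lever for food, and their age is not given in the sources used here. Striatum and whisker follicles were collected from 6 SA and 6 MA self-administered rats, which gave 24 libraries in 4 groups of 6. The labels name no allele or transgene in any group. Values are FPKM, a fragment count scaled to transcript length and library depth, so that levels of different genes can be set side by side. Libraries are named by the column index of 0 to 5 within a group, and no source links that index to a given rat.

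Dopamine is made from tyrosine in a pair of steps. Th adds the hydroxyl group, which is the rate-limiting step and needs the cofactor tetrahydrobiopterin, and Ddc removes the carboxyl group with the help of pyridoxal phosphate. VMAT2 then loads dopamine into vesicles, the dopamine transporter takes released dopamine back up, and the monoamine oxidases of the outer mitochondrial membrane break it down. Methamphetamine acts on this system through the dopamine transporter and VMAT2. The striatum receives dopamine from axons whose cell bodies, and with them most of the mRNA for Th, Slc6a3 and Slc18a2, lie in the midbrain. Maoa and Maob are made by many cell types, and in brain Maob is known for astrocytes and serotonin neurons.

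The promoters of Th and Slc18a2 are shown because both genes were listed above 0 in every library and were highest in the same striatum library. Each runs from 250 bases before to 50 bases after the RefSeq start site in the GRCr8 assembly. Th lies at chr1:207508169-207508468 on the minus strand and Slc18a2 at chr1:268399771-268400070 on the plus strand. Capitals mark a cAMP response element, TGACGTCA, which reads the same on both strands. It begins 69 bases before the start of Th and 52 bases before that of Slc18a2, and occurs in 1.83% of 33469 rat promoters of the same length. None of the promoter windows of Ddc (3 entries), Slc6a3, Maoa and Maob holds it.
Th: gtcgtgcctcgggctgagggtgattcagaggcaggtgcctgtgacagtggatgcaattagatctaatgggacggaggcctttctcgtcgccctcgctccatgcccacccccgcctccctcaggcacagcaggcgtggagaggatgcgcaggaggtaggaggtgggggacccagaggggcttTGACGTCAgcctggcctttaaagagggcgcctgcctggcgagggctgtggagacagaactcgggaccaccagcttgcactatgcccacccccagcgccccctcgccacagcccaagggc
Slc18a2: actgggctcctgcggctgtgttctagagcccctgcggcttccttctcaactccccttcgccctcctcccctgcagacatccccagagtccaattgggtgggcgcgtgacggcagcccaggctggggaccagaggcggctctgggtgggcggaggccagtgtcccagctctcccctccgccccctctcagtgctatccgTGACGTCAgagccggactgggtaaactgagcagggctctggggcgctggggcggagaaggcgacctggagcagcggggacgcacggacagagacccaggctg

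The promoters of Maoa and Maob are shown because these neighbouring genes of the X chromosome, with no other protein-coding gene between them in the RefSeq list, were present in different proportions in the tissues. Maoa lies at chrX:8681323-8681622 on the minus strand and Maob at chrX:8490155-8490454 on the plus strand, so the genes point toward each other. Capitals mark a GC box (GGGCGG, or CCGCCC when read on the other strand), which stands 4 times in the Maoa window and 2 times in the Maob window. It occurs in 33.1% of rat promoters, and the Slc6a3 and Slc18a2 windows hold 3 each. These windows come from the annotation, and the start sites used in these tissues were not measured. A match to these letters is a description of the sequence.
Maoa: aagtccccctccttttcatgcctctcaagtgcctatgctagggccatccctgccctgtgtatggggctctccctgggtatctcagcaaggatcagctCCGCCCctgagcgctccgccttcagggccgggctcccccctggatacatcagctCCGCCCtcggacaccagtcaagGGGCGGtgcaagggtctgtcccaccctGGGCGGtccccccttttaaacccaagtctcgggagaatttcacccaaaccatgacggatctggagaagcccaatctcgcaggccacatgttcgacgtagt
Maob: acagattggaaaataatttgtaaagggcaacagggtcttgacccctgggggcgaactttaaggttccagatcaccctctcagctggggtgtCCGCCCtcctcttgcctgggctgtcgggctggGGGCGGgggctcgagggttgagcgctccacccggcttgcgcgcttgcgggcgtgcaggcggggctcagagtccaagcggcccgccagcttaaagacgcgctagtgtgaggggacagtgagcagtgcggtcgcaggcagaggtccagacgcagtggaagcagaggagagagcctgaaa

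The tissues fitted their labels. Markers of striatal medium spiny neurons (10 genes) summed to between 2380 and 5920 FPKM in striatum and between 2.23 and 26.1 in follicle libraries, and 11 hair shaft and matrix genes to between 3.95 and 24.5 in striatum and between 15700 and 77700 in follicle. FPKM values of a library added up to 348717 to 418892 in striatum and 774567 to 1524572 in follicle, where the 10 most abundant genes took 27.1% to 44% of the sum, so that a difference between the tissues depends on how libraries are scaled. The low values moved in whole steps, which gave a relative depth of 1.2 to 1.61 in striatum and 0.385 to 0.804 in follicle libraries. Striatum SA library 4 and follicle SA library 5 stood apart in ways described beside the members they touch. In striatum SA library 1 the cortex and thalamus list summed to 53.1 FPKM, against 6.24 to 15.7 in the others, and in MA library 3 the erythrocyte list summed to 5660 FPKM, against 354 to 1830. A value of 0 is not proof of absence here, since Polr2l, Hprt1 and Rps6, which every cell uses, were listed at 0 in 18, 21 and 12 of the 24 libraries.

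Th was low in the striatum and higher in the whisker follicle. In the striatum, Th was 0.17 to 1.38 FPKM in SA rats (median 0.29) and 0.074 to 0.39 FPKM in MA rats (median 0.253). By the steps in the values, this came from 4 to 32 fragments per SA library and 2 to 9 per MA library. In these tissue samples, fewer cells of a type and less RNA per cell cannot be told apart. In the follicle, Th was 1.93 to 4.71 FPKM in SA rats (median 3.02) and 2.2 to 2.81 FPKM in MA rats (median 2.53), from 16 to 44 fragments. No follicle library overlapped a striatum library. The SA follicles spread widely and all 6 MA follicles lay below the SA median.

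A single library set the upper end of Th in the striatum. SA library 4 had 1.38 FPKM from 32 fragments, and the next SA library had 0.488 FPKM. Without it the other 5 SA libraries averaged 0.292 ± 0.123 FPKM (SD), beside 0.234 ± 0.133 FPKM in MA (SD, n = 6). The same library was the highest of its group for Lhx8, Gbx1, Ngfr, Zic1 and Chat, genes of the septum and cholinergic basal forebrain, and its summed level of the 8 genes of that list was 95.3 FPKM against 13.8 to 52.4 in the other striatum libraries. The next by that sum, MA library 5 (52.4 FPKM, medium spiny sum 2390 FPKM), had 0.0921 FPKM of Th from 2 fragments and 2.81 FPKM of Slc18a2. In SA library 4 the medium spiny neuron markers summed to 2380 FPKM, the lowest of all striatum libraries. Midbrain dopamine neuron factors were near 0 in the striatum, with Foxa2 at 0 in all SA and Foxa1 in all MA libraries. The 7 measured summed to 0.532 to 4.99 FPKM, most of it Nr4a2 (1.42 ± 1.75 FPKM in SA, SD, n = 6), which other neurons also make. The part of neighbouring forebrain tissue in the Th value was not tested.

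Ddc went the other way. In the striatum it was 1.66 to 2.51 FPKM in SA rats (median 2.27) and 1.12 to 3.72 FPKM in MA rats (median 2.02). The MA group held both the lowest libraries (1.12 and 1.42) and the highest (3.72 and 3.47), so it spread about the SA range on both sides. In the follicle Ddc was listed at 0 in 11 of 12 libraries, and follicle SA library 5 had 0.0399 FPKM. With no other follicle value above 0 there was no step to compare, so its fragments could not be counted. For Penk and Ppp1r1b, genes that are high in striatum, that library had 6.43 and 12.4 FPKM, and the next SA follicle had 0.193 and 4.83 FPKM. The part of striatal RNA in its Ddc value was not tested. The follicle had Th with Ddc at or near 0, and the striatum had more Ddc than Th in every one of its 12 libraries.

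Slc6a3 was at the edge of detection in both tissues. In the striatum it was above 0 in 2 of 6 SA and 4 of 6 MA libraries, at 0.0438 FPKM or less, which was 1 fragment in each. In the follicle it was above 0 in 1 SA library (0.198 FPKM, 2 fragments) and in 3 MA libraries (up to 0.0972 FPKM, 1 fragment each). These 11 fragments in 24 libraries carry no comparison between groups.

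Slc18a2 was measurable everywhere and higher in the follicle by FPKM as deposited. In the striatum it was 2.06 to 4.85 FPKM in SA rats (median 2.62) and 2.43 to 2.81 FPKM in MA rats (median 2.66). The SA maximum was again library 4, and without it the SA libraries averaged 2.56 ± 0.374 FPKM (SD), close to the 2.63 ± 0.161 FPKM of MA (SD, n = 6). In the follicle it was 3.67 to 6.25 FPKM in SA rats (median 4.86) and 3.96 to 7.52 FPKM in MA rats (median 5.37). In MA follicles 3 libraries lay at 3.96 to 4.18 FPKM and 3 at 6.57 to 7.52 FPKM. VMAT2 serves all monoamines. In the follicle the serotonin transporter gene Slc6a4 was at 2.97 ± 1.3 FPKM in SA and 3.69 ± 0.396 FPKM in MA (SD, n = 6). Tph2 and Tph1, which make serotonin, averaged 0.0296 and 0.103 FPKM in SA follicles, and Fev, a factor of serotonin neurons, was at 0 there. Gata3, on the same list of serotonin markers as Tph2, Slc6a4 and Fev, was at 11.4 ± 8.65 FPKM in SA and 18.2 ± 7.18 FPKM in MA follicles (SD, n = 6). The mast cell list, whose cells also store monoamines, summed to 0 to 0.888 FPKM in the follicle, with Ms4a2 and Tpsab1 at 0 in all 12 libraries and Kit at 0.223 ± 0.331 FPKM in SA and 0.381 ± 0.227 FPKM in MA (SD, n = 6). Dbh, which turns dopamine into noradrenaline, was also at 0 in all of them.

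The oxidases were the most abundant members in the striatum, and Maoa was in the follicle. Maoa in the striatum was 18.4 to 24.7 FPKM in SA rats (median 23) and 20 to 29 FPKM in MA rats (median 22.7), and in the follicle 7.77 to 9.43 FPKM in SA (median 8.27) and 6.76 to 9.61 FPKM in MA (median 8.1). Every follicle library lay below every striatum library. Maob in the striatum was 31.4 to 47.2 FPKM in SA rats (median 34.8) and 36.7 to 68.1 FPKM in MA rats (median 43.1). All 6 MA values were above the SA median, but the ranges overlapped. In the follicle Maob was listed at 0 in 5 of 6 SA libraries and was 0 to 0.0989 FPKM in MA libraries, with at most 1 fragment each. The exception, 0.433 FPKM from 5 fragments, was SA library 5, the follicle library with the most Penk and Ppp1r1b.

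**Figure D1:**
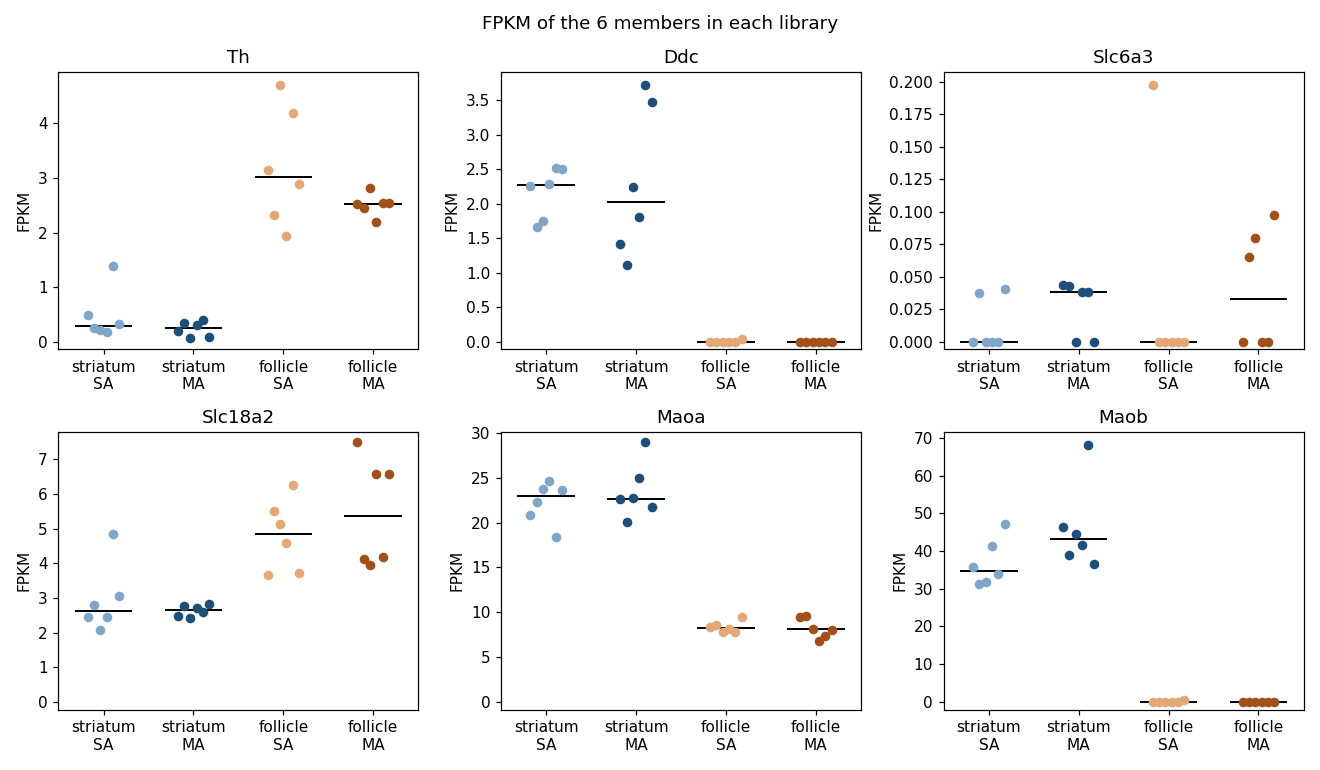
FPKM (y axis, linear, a separate range in each panel) of the 6 members in each of the 24 libraries, by tissue and treatment, with a line at the median of each group of 6. Th and Slc18a2 each have 1 high SA striatum library (1.38 and 4.85 FPKM), Maob has 1 high MA striatum library (68.1 FPKM), and Ddc and Maob lie at or near 0 in the follicle.

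The first comparison asked whether MA self-administration changed these mRNAs in the striatum. No member passed the test between MA and SA rats. In limma on log2(FPKM + 1), 4 members passed the filter of a mean FPKM of at least 1 (Ddc, Slc18a2, Maoa and Maob), and 0 of the 4 were called, a call being an adjusted p below 0.05 together with a 1.5-fold or larger difference. Among all 10607 genes tested, 0.00943% were called, and 8.26% had an unadjusted p under 0.05, which 0 of the 4 members reached. The groups did not overlap for 0 of the 4, and for 0.358% of all genes. The exact permutation test, which also covers Th and Slc6a3, gave no p under 0.05 for any of the 6, where the smallest possible is 0.00216.

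Maob came closest. Its mean was 46.1 ± 11.4 FPKM in MA and 36.9 ± 6.2 FPKM in SA (SD, n = 6), a difference of 0.30 on the log2 scale (SE 0.14, 95% interval -0.01 to 0.61), with an exact permutation p of 0.0736 and a limma adjusted p of 0.614. MA library 4, at 68.1 FPKM, contributed much of it, and without this library the difference was 0.18. The FPKM values of this library also added up to the highest sum in striatum, 418892, against 348717 to 382407 in the others. MA library 4 also had the highest summed level of the 10 astrocyte markers (5800 FPKM, against 2450 to 4270 in the other striatum libraries). The next library by that sum was MA library 5, at 4270 FPKM, and it had the lowest Maob of its group (36.7 FPKM). Astrocyte markers lay on the MA side as a list, with 9 of 10 above and 1 below zero, a median log2 difference of 0.37 beside 0.00 over all genes, 6 with an unadjusted p under 0.05 and 0 called. Other lists lay on the MA side too, with 8 of 8 microglia genes above zero (median 0.48), 10 of 10 endothelial (0.23), 4 of 4 erythrocyte (1.12), 8 of 8 smooth muscle and pericyte (0.28) and 6 of 7 fibroblast genes (0.40), and none of these genes was called. The part of these cell types in Maob was not tested. Of the 12 runs that each left out 1 library, 2 gave an exact permutation p under 0.05 for Maob and 10 did not. It was 0.0238 without SA library 5 and 0.0455 without MA library 5.

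On this scale, which compresses low genes, the other members showed smaller differences in the striatum. Maoa differed by 0.07 (95% interval -0.13 to 0.28, adjusted p = 0.855 in limma) and Ddc by 0.01 (-0.41 to 0.42, adjusted p = 0.995 in limma). Slc18a2 differed by -0.08 (-0.37 to 0.21, adjusted p = 0.886 in limma), and by 0.04 without SA library 4. Th, below the filter, differed by -0.22 with an exact permutation p of 0.227, and by -0.07 without SA library 4. The interval of Ddc was the widest of these, and that of Maoa the narrowest.

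The same comparison in the whisker follicle also gave no call. Th, Slc18a2 and Maoa passed the filter there, and 0 of the 3 were called by limma, where 0% of 9138 genes were called and 10.4% had an unadjusted p under 0.05, which none of the 3 reached. The groups did not overlap for 0 of the 3, and for 0.482% of all genes. The count over all genes rested on follicle SA library 0, without which 1219 genes were called, and none of them was a member. Th averaged 2.51 ± 0.196 FPKM in MA and 3.2 ± 1.07 FPKM in SA (SD, n = 6). Its log2 difference was -0.22 (95% interval -0.56 to 0.12, adjusted p = 0.512 in limma), with an exact permutation p of 0.203. Of the 12 runs that each left out 1 library, only that without SA library 3 gave an exact p under 0.05 (0.0303, difference -0.32). Slc18a2 differed by 0.14 (-0.23 to 0.52, adjusted p = 0.686 in limma) and Maoa by -0.02 (-0.24 to 0.20, adjusted p = 0.922 in limma). None of the 6 members had an exact permutation p under 0.05 in the follicle. The Maoa interval was the narrowest of the 3.

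**Figure D2:**
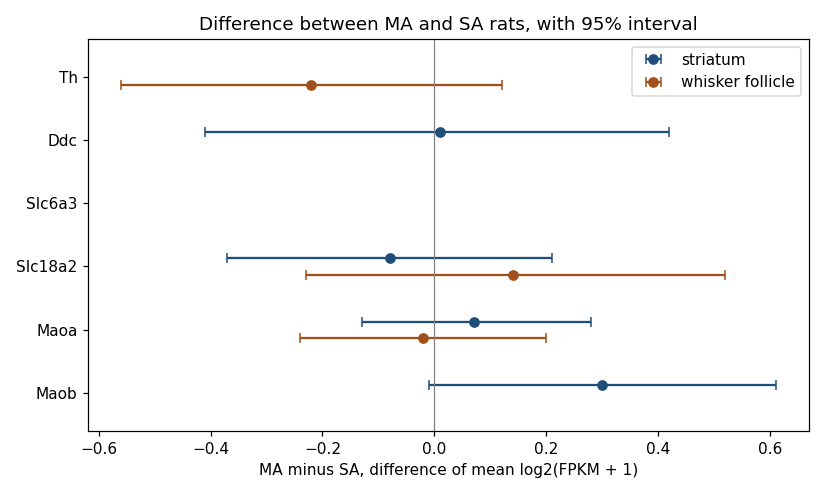
Difference between MA and SA rats in mean log2(FPKM + 1) (x axis) for the members that passed the filter on low values, with 95% intervals from limma, in striatum (blue) and whisker follicle (brown), 6 rats per group. Every interval crosses 0, Maob in the striatum (0.30) lies farthest from it, and Slc6a3 was below the filter in both tissues.

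The MA effect was not shown to differ between the tissues. The interaction in limma called 0 of the 5 members tested (0.00867% of 11533 genes were called, and 11.1% had an unadjusted p under 0.05, which none of the 5 reached). The largest differences of the effect, follicle minus striatum, were -0.32 for Maob (SE 0.19, adjusted p = 0.498) and 0.23 for Slc18a2 (SE 0.22, adjusted p = 0.673). Maob was at or near 0 in the follicle in both treatments.

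Oxidase balance was compared within libraries, where scaling cancels. The ratio of Maob to Maoa in the striatum was 1.34 to 1.99 in SA libraries (median 1.69) and 1.67 to 2.35 in MA libraries (median 1.95). Maob was thus the more abundant oxidase in each of the 12. The difference of 0.23 on the log2 scale had an exact permutation p of 0.0823. Of the 12 runs that each left out 1 library, only that without SA library 5 gave a p under 0.05 (0.0368). In the follicle the ratio was 0.00556 to 0.0146 in the 4 MA libraries with any Maob, each of which rested on 1 fragment of Maob, and Maob was listed at 0 in the other 2. Only 1 SA follicle had Maob, so the ratio is given for the follicle with no test. Maoa exceeded Maob in all 12 follicle libraries.

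The tissues differed in nearly all members, as they did in most genes. In SA rats 4 of 5 tested members were called by limma (75.3% of 11533 genes were called, 31.5% higher and 43.8% lower in the follicle) and in MA rats 5 of 5 (73%, with 30.6% higher and 42.4% lower). With most genes called, the count of members is no result about this pathway. The groups did not overlap for 4 of the 5 in SA and 5 of the 5 in MA, beside 67.8% and 72.6% of all genes. Th entered this test only through the follicle, and Ddc and Maob only through the striatum, since their mean in the other tissue was under the filter, so that these 3 had to differ. The median difference over all genes was -0.30 in SA and -0.26 in MA, follicle minus striatum.

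Th was higher in the follicle by 1.52 on the log2 scale in SA (SE 0.16) and by 1.51 in MA (SE 0.16). No limma p is given here for Th, Ddc and Maob, which passed the filter only through the tissue where they are high. By mean FPKM this was 6.76-fold in SA and 10.7-fold in MA, and 11-fold in SA without striatum SA library 4. The exact permutation p, which uses no filter, was 0.00216 for Th, Ddc, Maoa and Maob in each treatment. It is the smallest possible over 924 assignments. These treat the libraries as unpaired, although both tissues came from the same rats, because the columns do not give the rat. Ddc was lower in the follicle, with differences of -1.64 in SA and -1.66 in MA (SE 0.15 in both), with nearly all follicle values listed at 0, so the size of its difference depends on the pseudocount (-4.40 in SA with a pseudocount of 0.1). Maoa was lower, with differences of -1.31 in SA and -1.41 in MA (SE 0.10 in both), which by mean FPKM was 2.67-fold and 2.86-fold. Maob was lower, with differences of -5.14 in SA and -5.46 in MA (SE 0.13 in both). With Maob listed at 0 in 7 of 12 follicle libraries this size also depends on the pseudocount (-8.11 in SA with a pseudocount of 0.1).

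Of the 5 members tested between the tissues, Slc18a2 had a direction that depended on the scale. As deposited it was higher in the follicle by 0.57 in SA (SE 0.16, adjusted p = 0.00165 in limma, fold 1.49, not called) and by 0.80 in MA (SE 0.16, adjusted p = 5.2e-05, called), but with all libraries brought to the same sum of FPKM it was lower, with differences of -0.84 in SA and -0.41 in MA. With the same median it was higher by 1.05 and 1.23. Under the same-sum scaling the median over all genes was -1.75 in SA and -1.54 in MA, and 13.9% and 15.1% of called genes were higher in the follicle, beside 41.8% and 42% as deposited and 55.4% and 54.9% with the same median. Relative to the median gene, Slc18a2 was on the follicle side under each of the 5 scalings. Scaling by sum or median moves Slc18a2 and the median gene nearly alike, so those scalings are no separate support. Th was higher and Ddc, Maoa and Maob lower in the follicle under each of the 5 scalings in both treatments, with Th between 0.65 and 2.13 in SA.

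**Figure D3:**
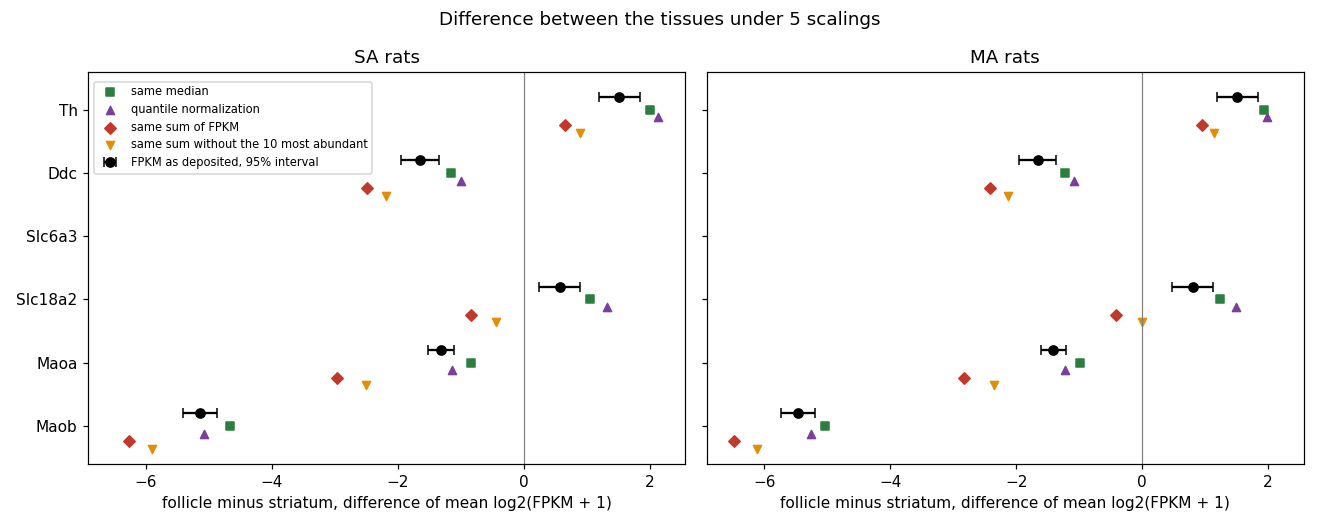
Difference between whisker follicle and striatum in mean log2(FPKM + 1) (x axis) for each member in SA rats (left) and MA rats (right), 6 libraries per group. Black points with 95% intervals are FPKM as deposited and the other symbols are 4 other scalings; Slc18a2 lies on both sides of 0 (0.57 and -0.84 in SA), the others on one side, and Slc6a3 was below the filter.

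No pair of members was shown to vary together across the libraries of a tissue. Over the 12 striatum libraries, Th and Slc18a2 had r = 0.83 (permutation p = 0.0264, adjusted p = 0.343 over 26 tests of 13 pairs) and rho = 0.42 (permutation p = 0.177), and r was 0.07 without SA library 4 and MA library 2. Maoa and Maob had r = 0.69 (permutation p = 0.0168, adjusted p = 0.343) and rho = 0.53 (permutation p = 0.0787), and r was 0.26 without MA library 4 and SA library 4. The libraries left out were those farthest from the median of the first gene of the pair, which narrows its range. A lower r without them therefore does not show that they made the relation. Of the 13 pairs, 10 in striatum and 3 in follicle, none had an adjusted p under 0.05.

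The genes most like each member differed from member to member. In the striatum, over 12 libraries and 10607 genes, Maoa ran closest with Stk10 (r = 0.97), Emcn (r = 0.97) and Rgs5 (r = 0.95), of which Emcn is an endothelial and Rgs5 a pericyte gene. The 10 endothelial markers summed to 292 FPKM in MA library 4, where Maoa was highest (29 FPKM), and to 109 FPKM in SA library 4, where Maoa was lowest (18.4 FPKM). Maob ran closest with Fmo1 (r = 0.96), Loxl3 (0.94) and Prrx1 (0.92), and Ddc with Rab34 (0.94), Ndufa2 (0.93) and LOC100911177 (0.93). For Slc18a2 they were Srp68 (r = 0.93), the septal factor Zic1 (0.92) and Nob1 (0.92), and without SA library 4 these fell to 0.74, 0.56 and 0.85. In the follicle, over 9138 genes, Th ran closest with Polr2l (0.82, a gene listed at 0 in 9 of the 12 follicle libraries), Cul4b (0.81) and Abcf3 (0.79), Slc18a2 with Jmjd6 (0.92), Cep19 (0.87) and Wnt10a (0.87), and Maoa with Gramd1a (0.83), Homer1 (0.82) and Tmtc3 (0.80). These are descriptions of 12 libraries, chosen as the highest among all genes.

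**Figure D4:**
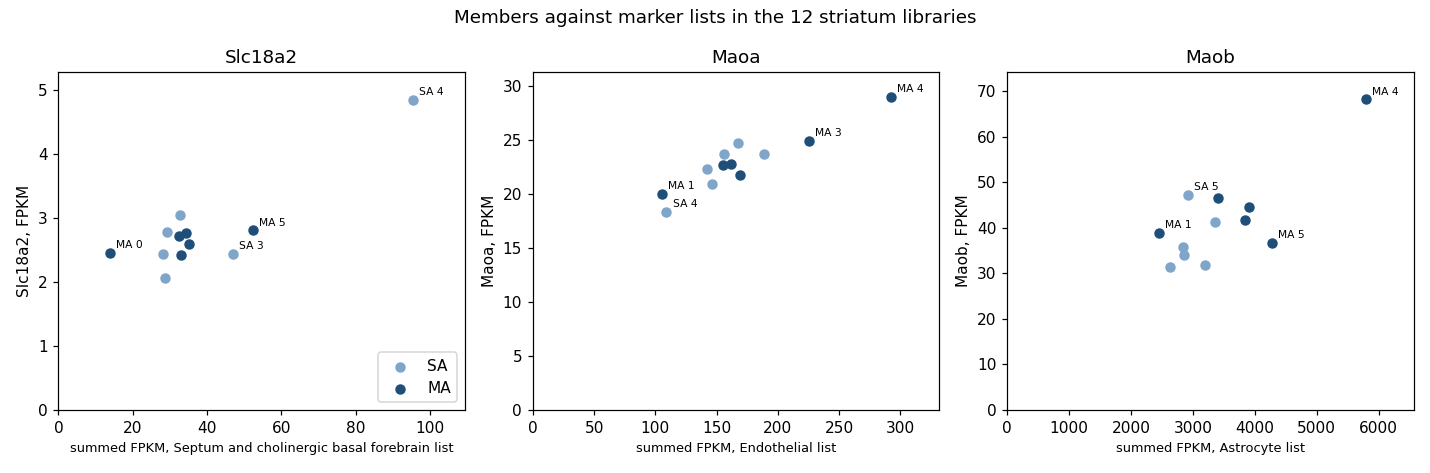
FPKM of Slc18a2, Maoa and Maob (y axes) against the summed FPKM of a marker list (x axes) in the 12 striatum libraries, SA light and MA dark, with some libraries named. SA library 4 has both the most Slc18a2 (4.85) and the highest septum and basal forebrain sum (95.3), and MA library 4 has the most Maoa, endothelial signal, Maob and astrocyte signal (29, 292, 68.1 and 5800).

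The other genes of the pathway came from 6 lists of 51 genes in all, covering the cofactors, further breakdown, noradrenaline and serotonin synthesis, other transporters, and partners of Th and the transporters. In the striatum 37 were tested and 0 were called between MA and SA, with 16 above and 21 below zero and a median of -0.02 beside 0.00 over all genes. In the follicle 27 were tested and 0 were called, with 7 above and 20 below zero and a median of -0.08 beside -0.01. At an unadjusted p under 0.05 there were 2 in each tissue, or 5.41% and 7.41% of those tested, below the 8.26% and 10.4% of all genes. Aldh2, the mitochondrial aldehyde dehydrogenase that acts after the oxidases, was one of them in both, with a difference of 0.31 in striatum (SE 0.11, adjusted p = 0.577 in limma) and 0.27 in follicle (SE 0.11, adjusted p = 0.465). The others were Aldh9a1 in striatum (0.24, adjusted p = 0.603) and Spr, which makes tetrahydrobiopterin, in follicle (-0.47, adjusted p = 0.465). None of these passed the adjusted threshold, and they are named by rule as the smallest p of their tissue.

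Between the tissues, 12 of 39 tested pathway genes were called higher and 22 lower in SA follicles, and 11 higher and 21 lower in MA follicles. In SA these were 30.8% and 56.4% of those tested, beside 31.5% and 43.8% of all genes, and in MA 28.2% and 53.8%, beside 30.6% and 42.4%. With the same sum of FPKM these became 4 and 32 in SA and 4 and 30 in MA, and 28 of the 39 genes in SA and 27 in MA kept their direction under all 5 scalings. The genes that were most strongly higher in the follicle kept it. Gch1, the first enzyme of tetrahydrobiopterin synthesis, averaged 14.5 ± 8.92 FPKM in SA follicle and 0.566 ± 0.276 FPKM in SA striatum (SD, n = 6), and its regulator Gchfr 92.4 ± 43.6 FPKM and 4.17 ± 0.978 FPKM. Aldh1a1, an aldehyde dehydrogenase known from midbrain dopamine neurons, averaged 200 ± 60.8 FPKM in SA follicle and 7.37 ± 2.95 FPKM in SA striatum. On the log2 scale these differences were 3.14 for Gch1, 4.00 for Gchfr, 4.62 for Aldh1a1 and 1.90 for Slc6a4. Gch1 and Slc6a4 entered the test only through the follicle, since their striatum means were under the filter, so they had to differ. All 4 were named for the size of their difference, so no p is given. Of the 7 tetrahydrobiopterin genes tested, 4 were called higher and 2 lower in SA follicles.

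Genes known from neurons were among those most strongly lower in the follicle. Sult4a1 (a brain sulfotransferase), the D2 receptor gene Drd2 and the synaptic vesicle gene Syngr3 differed by -6.91, -6.78 and -5.32 in SA. They kept this direction under all 5 scalings. Their follicle means were under the filter, so they entered the test only through the striatum and had to differ. The genes for pyridoxal phosphate, the cofactor of Ddc, were lower in the follicle as well, with 3 of 3 called lower in SA and in MA. Of all genes, 43.8% were called lower in SA and 42.4% in MA, so this count is no result about the cofactor.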

How the data were processed

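RNA was extracted with TRIzol and polyA libraries were made with a TruSeq kit that does not mark strand. The authors deposited FPKM as 1 table of 17711 rows and 24 columns. The paper names Cutadapt, TopHat2, Cufflinks and the rn6 genome, while bcl2fastq, the aligner STAR (2.6.0c) and Cufflinks (2.2.1), with rn6, stand in the submitters' processing notes. The gene annotation is not given in the sources used here. Read totals are not in the table, so errors are the spread over the 6 libraries of a group. The authors' own test, Cuffdiff, needs reads and was not run. With it the paper reported more genes as changed by MA in both tissues than limma called here. The counts of called genes given here are therefore those of limma on FPKM alone. Columns were assigned to groups by name, and 0 were left out.

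Genes whose mean FPKM reached 1 were tested by limma 3.58.1 in R 4.3.3 (trend, two-sided) on log2(FPKM + 1), per tissue or over all 24 libraries, with Benjamini-Hochberg adjustment over all genes tested. A call needs an adjusted p below 0.05 together with a 1.5-fold or larger difference, which on this scale understates low genes. Single members and the oxidase ratio were compared by exact permutation over 924 assignments of 12 libraries (fewer for smaller groups), and of the 4 planned ratio tests 1 is reported, since few follicle libraries had Maob above 0. Member pairs were tested with 100000 resamples (numpy 2.4.6, scipy 1.17.1). Fragments were recovered from steps in the FPKM of low genes, with a tolerance of 0.2 for whole numbers. The limma fit was tested on simulated data for the MA effect in each tissue and for the tissue difference in SA. The other tests and the recovery of fragments were not.

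All 6 members are named. Other genes are up to 4 per tissue that were called or had the smallest unadjusted p, up to 4 with the largest tissue difference each way, and the 3 most correlated with each member. The genes used for checks were picked with their values in view. Some of what falls within this rule is not reported here. The members and lists were chosen with earlier results of these data known. The septum and basal forebrain list, the Merkel cell list and the recovery of fragments were added after seeing the values. Sequences are from RefSeq (GRCr8), where 6 of 6 members matched. Alternatives were pseudocounts of 0.1 and 0.5, testing every row or those whose mean reached 5 FPKM, 4 other scalings, no trend, weighted libraries, adjusted p alone and leaving out libraries.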

Additional observations from a re-analysis of the deposited data

Results flagged for a closer look

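In a group of 6, a library was listed here when its gap to the nearest of the others passed Dixon's 95% limit as a share of the group's range, which chance gives in about 5% of groups. Of 23 groups with any spread, 6 had such a library, all of them high. In 3 of these groups (Ddc, Maob and Slc6a3 in SA follicles) the other 5 libraries were at 0, where any single value above 0 is listed by construction and the 5% does not hold. They were Th (1.38 FPKM) and Slc18a2 (4.85 FPKM) in striatum SA library 4 and Maob in striatum MA library 4 (68.1 FPKM). In the follicle they were Ddc (0.0399 FPKM) and Maob (0.433 FPKM, 5 fragments) in SA library 5, and Slc6a3 in SA library 0 (0.198 FPKM, 2 fragments). No member's MA effect passed the interaction test between the tissues.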

How the results depend on the processing

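No paired analysis was possible because the table's columns carry no rat number. Of 399 values under alternatives other than leaving out 1 library, 347 kept their direction and their side of the threshold, and the cause of the other shifts was not tested. No alternative called a member between MA and SA. Most reversals were of differences near 0. In the striatum Ddc (0.01) became -0.02 with a pseudocount of 0.1, -0.01 with 0.5, -0.06 with the same sum of FPKM (-0.08 in the single-member test), -0.00 with quantile normalization, -0.01 with the same median, -0.04 with weighted libraries, -0.10 without MA libraries 3 and 4 and -0.01 without SA libraries 1 and 4, the last 2 added after seeing that these libraries stood apart in marker lists. Slc18a2 became 0.06 without SA libraries 1 and 4, and Maoa -0.02 with the same sum and without MA libraries 3 and 4. In the follicle Maoa became 0.13 with the same sum and 0.04 with weighted libraries, and Maob 0.12 with a pseudocount of 0.1. In the interaction Th became 0.34 and 0.08 with the lower pseudocounts and 0.30 with the same sum, Ddc 0.08 with the same sum and 0.03 with weights, and Maoa 0.14 and 0.00.

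Between the tissues Slc18a2 became -0.84 in SA and -0.41 in MA with the same sum, and -0.44 in SA and 0.00 in MA with the same sum without the 10 most abundant genes, and Slc6a3 -0.01 in SA and -0.03 in MA with the same sum. With a mean FPKM of 5 or more, 2 of 3 members in SA and 3 of 3 in MA were called. Correlations that changed sign were Th with Maob in striatum (0.05) and with Slc18a2 in follicle (0.09) on residuals from the group means, and Th with Maoa (0.34) and Slc18a2 with Maoa (0.21) in follicle with the same sum.

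Leaving out each library in turn, ranges that crossed 0 were -0.11 to 0.12 for Ddc and -0.15 to 0.04 for Slc18a2 in striatum, -0.06 to 0.03 for Maoa, -0.00 to 0.06 for Slc6a3 and -0.04 to 0.07 for Maob in follicle, -0.15 to 0.09 for Th and -0.13 to 0.10 for Ddc in the interaction, and -0.02 to 0.03 for Slc6a3 between the tissues in SA. The difference in the striatal ratio of Maob to Maoa stayed between 0.17 and 0.28. Its exact p was under 0.05 in 1 of 12 runs (0.0368, without SA library 5). Over all genes, the calls in the follicle rose from 0 to 1160 with weighted libraries and 1219 without SA library 0. Those of the interaction rose from 1 to 1380 with weights and 1241 without that library, and were 2 with a pseudocount of 0.1, 3 with no filter and 0 with a mean of 5 or more. In the striatum they were 0 to 4 with 1 library left out, beside 1. Depth limits Slc6a3 in both tissues, Th in striatum and Maob in follicle, which rest on few fragments, and Ddc in follicle, listed at 0 in nearly all libraries.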

Other observations

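The 6 genes measured of the Merkel cell list summed to 23.9 to 79.4 FPKM in follicle and 24.4 to 44.8 FPKM in striatum libraries. A different gene made up most of the sum in each tissue, so the sums do not compare Merkel cells between them. In SA follicles it was Krt8 (54.4 ± 14.3 FPKM, SD, n = 6) and in SA striatum Sox2 (24.7 ± 2.89 FPKM, SD, n = 6). Isl1 and Atoh1 were at 0 in all 12 follicle libraries. The 10 endothelial markers summed to 0.482 to 1.74 FPKM in the follicle, and the 3 measured noradrenergic and sympathetic markers to at most 0.377 FPKM. In the striatum Tph2, which makes serotonin in the brain, was 1.36 ± 0.489 FPKM in SA and 2.22 ± 1.36 FPKM in MA (SD, n = 6), while Slc6a4 was near 0 there.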
